A study of Mus musculus with 18 samples.

Results

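The comparison described here is between the erbB2-positive and the erbB2-negative fraction of a 1:1 co-culture of 2 mouse mammary cell lines. The members are 6 of the 18 arrays of the series, 3 from each fraction, chosen by the sample titles alone. Comma-D cells are non-tumour epithelial cells of the mouse mammary gland. MMTV-neu cells derive from mouse mammary tumours in which the mammary tumour virus promoter drives the oncogene neu, a form of erbB2. The co-culture was grown in the Comma-D medium, which contains EGF and insulin, and its cells were then detached, bound by an antibody to erbB2 and sorted magnetically. In the labels the fraction that bound is cancer, with erbB2 and its phosphorylated form present. The fraction that did not bind is normal there, with neither present. The 1:50 co-culture was handled in the same way, but its bound fraction is labelled redirected, as erbB2 was present without phosphorylation, and its unbound fraction normal. Unmixed Comma-D was grown in that same medium and unmixed MMTV-neu in a serum-richer one, so line and medium cannot be told apart between them. Nothing in the labels says that arrays of a group came from separate cultures, so the p-values measure the spread between these samples, which may be technical. In bulk RNA, fewer cells of a type and less RNA per cell cannot be told apart.

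The mammary epithelium has an inner luminal layer, marked by the keratins Krt8 and Krt18, and an outer basal or myoepithelial layer, marked by Krt5, Krt14, smooth muscle proteins and laminin-binding integrins. ErbB2 is a receptor tyrosine kinase without a known ligand of its own that signals by pairing with the EGF receptor or with ErbB3, upstream of the ERK and PI3K pathways. Mouse tumours driven by neu are known for a luminal character.

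Values are log2 RMA signals, in which 1 unit is a doubling, and each of 19938 genes is represented by a single probe set. Differences are erbB2-positive minus erbB2-negative with the standard error (SE) from limma, n = 3 arrays in each fraction, and called means an adjusted p under 0.05 by the Benjamini-Hochberg method across the 19938 genes. The spread of gene values per array was narrower in the erbB2-positive fraction, with a standard deviation of 1.32 to 1.43, than in the erbB2-negative one, with 1.49 to 1.74. It was 1.26 to 1.28 in MMTV-neu and 1.85 to 1.88 in Comma-D. The erbB2-negative replicate 1 stood apart from its group. Its Pearson correlation over the genes, which do not count as independent points, was 0.9751 and 0.9611 with erbB2-negative replicates 2 and 3 but 0.9722 and 0.9776 with erbB2-positive replicates 2 and 3, whereas the other erbB2-negative pair reached 0.9944. Arrays with the same replicate number deviated from their group means together, with correlations of 0.628, 0.218 and 0.602. For unlike numbers the correlation ran from -0.615 (erbB2-positive 3 with erbB2-negative 1) to 0.438 (erbB2-positive 3 with erbB2-negative 2). The latter was above the 0.218 of the replicate 2 pair, so a pairing by number is not established. Differences within replicate number are given where a result turns on them. Counts with both replicate 1 arrays left out are given where they change a list's count by more than 1.5 times and by at least 2 genes.

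The signal of the Erbb2 probe set overlapped between the fractions. Erbb2 read 7.87, 7.83 and 7.92 in erbB2-positive replicates 1, 2 and 3, and 7.87, 7.79 and 7.74 in the erbB2-negative ones. The groups overlapped, and the difference was 0.08 ± 0.10 (95% interval -0.13 to 0.28, adjusted p = 0.513). Unmixed Comma-D and MMTV-neu averaged 8.20 and 8.06. A scaling in which all arrays are given the same distribution (quantile normalization) put the Erbb2 difference at 0.38 (adjusted p = 0.024), and centring each array on 8 reference genes put it at 0.68 (adjusted p = 0.003). The sort was on protein at the cell surface, which the arrays do not measure. Whether this probe set also reads the transcript of the oncogene neu was not tested.

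The fractions differed at 11195 of 19938 genes (56.1%). Of these, 7017 (35.2% of all genes) were higher in the erbB2-positive fraction and 4178 (21%) were lower. Large differences were nearly all falls, with 1617 genes (8.11%) at least 2-fold lower and 9 (0.0451%) at least 2-fold higher. In 10968 genes (55%) the 3 and 3 arrays did not overlap, with 7133 (35.8%) above and 3835 (19.2%) below. Among called genes, 11017 (98.41%) differed in the same direction within all 3 replicate numbers. These differences use the arrays that gave the calls, so that share is no separate evidence for them.

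The direction followed the level of the gene. Genes were divided into quartiles by their mean over the 6 arrays. In the lowest, 33.5% were called higher and 0.562% lower, and in the next 60.5% and 6.1%. In the following quartile 32.7% were called higher and 25.4% lower, and in the highest 14.1% and 51.7%. The median difference in the 4 quartiles, from lowest to highest, was 0.21, 0.40, 0.02 and -0.41. Quantile normalization brought these medians to 0.01, 0.10, 0.09 and 0.01. Under it 7455 of the 19938 genes were called, 4175 higher and 3280 lower. Centring on the reference genes, which were themselves lower in the erbB2-positive fraction at 4 of 8 genes, added 0.60 to every difference and changed the split to 14395 genes higher and 1579 lower. For this reason the gene lists below are given with their median, their median relative to genes of a like level, and their counts after quantile normalization. In several lists the share called higher as deposited was 31.25% to 40%, near the 35.2% of all genes. They were the luminal, junction, ERBB ligand, chemokine, milk protein, insulin-like growth factor, Notch, fibroblast and adipocyte lists. Centring turned the sign of the median of 14 of 33 lists, from below to above 0. These were the junction, ERK feedback, immediate early, heat shock, hypoxia and glycolysis, interferon, class I, DNA replication, ribosomal protein, proteasome, insulin-like growth factor, TGF-beta, Notch and reference gene lists. Quantile normalization turned the median of the ERBB ligands, chemokines and adipocyte markers to below 0. It turned that of the DNA replication, proteasome, insulin-like growth factor and Notch lists to above 0. Leaving out the lowest 40% of genes turned 4 medians to below 0. Of 8 milk protein genes left, 1 was higher and 4 lower (median -0.51), and of 10 chemokine genes 0 and 3 (-0.13). Of 3 macrophage markers left, 1 was higher and 1 lower (-0.24), and of 9 fibroblast markers 3 and 4 (-0.05). Differences that lost their call under a scaling are named as such, and the part of array spread in the falls of highly expressed genes was not tested.

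**Figure D1:**
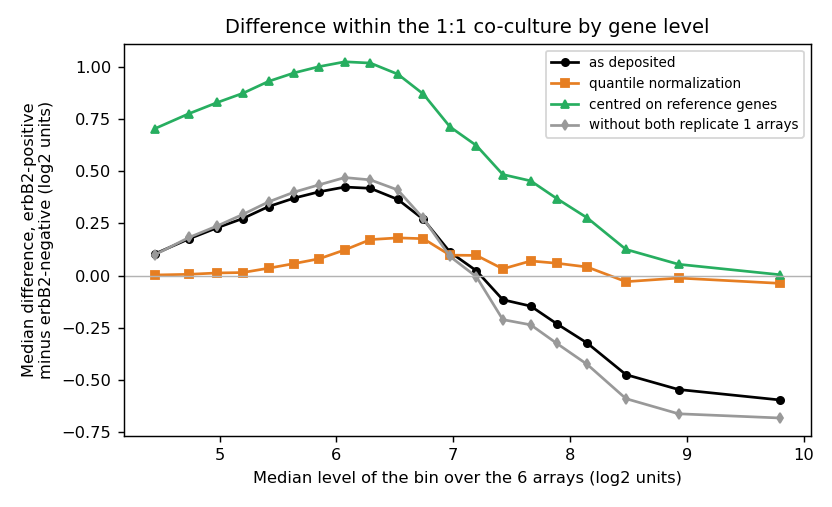
Median difference (erbB2-positive minus erbB2-negative, log2 units) of 20 equal bins of genes against the median level of the bin over the 6 arrays, under 4 treatments of the same values. As deposited, the line runs from above 0 at low levels to below 0 at high levels; after quantile normalization it stays near 0, and centring on reference genes shifts it upward by 0.60.

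The genes with the largest falls were well expressed in Comma-D and low in MMTV-neu. Zfp971, a zinc finger gene, read 4.72, 5.51 and 5.91 in the erbB2-positive fraction and 7.12, 8.51 and 8.89 in the erbB2-negative one. It was 6.93-fold lower (-2.79 ± 0.36, adjusted p = 4.8e-05), with every erbB2-positive array below every erbB2-negative one. Gstp1, a glutathione transferase that detoxifies electrophiles, read 7.87, 7.80 and 8.10 against 9.61, 10.33 and 10.55 and was 4.72-fold lower (adjusted p = 4.2e-06). Idh1, the cytosolic isocitrate dehydrogenase that supplies NADPH, read 7.25, 8.12 and 8.31 against 9.81, 10.09 and 10.15, a 4.35-fold difference (adjusted p = 5.1e-06). C1galt1, which builds the core of mucin-type O-glycans, was 4.43-fold lower, and Dnajb4, an Hsp40 co-chaperone, was 4.50-fold lower. Emb (embigin, a partner of monocarboxylate transporters), Praf2 and Txndc9 (a thioredoxin-domain protein) differed by -2.17, -2.31 and -2.26. Prdx2, a peroxidase of hydrogen peroxide, showed a difference of -2.39 ± 0.48 that rested in part on 1 array. Its erbB2-positive arrays read 6.30, 8.45 and 9.39, and without erbB2-positive replicate 1 the difference was -1.51. The mean of its probe sets gave -1.32.

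The largest rises were smaller than the largest falls and were of genes higher in MMTV-neu. Mir421, a microRNA gene, read 7.99, 7.15 and 7.04 against 6.98, 5.55 and 5.38, and was 2.67-fold higher (1.42 ± 0.40, adjusted p = 0.00809). The call was lost without erbB2-positive replicate 1 (adjusted p = 0.051) or without erbB2-negative replicate 3 (adjusted p = 0.052). Hoxc10, a posterior homeobox gene, read 8.25, 7.71 and 7.80 against 7.14, 6.18 and 6.36, a difference of 1.36 ± 0.23 (adjusted p = 0.00034). The fractions did not overlap for either gene, although erbB2-negative replicate 1 of Mir421, at 6.98, lay close to the lowest erbB2-positive array, at 7.04. Pth2, a neuropeptide gene, was 2.14-fold higher, Nptx2, a neuronal pentraxin, 2.01-fold higher, C2cd4a 2.03-fold higher and Hoxc6 2.03-fold higher. Efnb3, an ephrin ligand, and Bmp8b, a BMP ligand, were higher by 0.97 and 0.98. The 5p arm of the mature RNA of Mir421 is shown because this gene had the largest rise, and its 3p arm is not shown here. The sequence is from RefSeq (GRCm38.p6, minus strand, chrX:103572966-103572986), with the seed, bases 2 to 8, in capitals. The array probe set does not separate the precursor from the mature RNA.
mmu-miR-421-5p: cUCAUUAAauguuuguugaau

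Basal markers were mostly lower in the erbB2-positive fraction, while the luminal list as deposited was called higher about as often as all genes. Of 23 measured luminal keratins and luminal epithelial markers, 9 were higher and 3 lower (median 0.32, and 0.14 above genes of a like level). Of 25 basal and myoepithelial markers, 1 was higher and 15 were lower (median -0.95, and 0.44 below genes of a like level), against 35.2% higher and 21% lower among all genes. After quantile normalization 8 luminal markers were higher and 1 lower, and 1 basal marker was higher and 10 lower. Of all 19938 genes, 4175 were higher and 3280 lower under that scaling. After centring 17 luminal markers were higher and 1 lower, and 4 basal markers were higher and 8 lower. Krt8, the luminal keratin, read 11.28, 11.35 and 11.22 against 11.12, 10.70 and 10.46. The erbB2-positive arrays lay above all the others, with a difference of 0.53 ± 0.19 (adjusted p = 0.0273). The 3 differences within replicate number were 0.17, 0.66 and 0.76, and the call was lost when erbB2-positive replicate 1 or 2 or erbB2-negative replicate 2 or 3 was left out (adjusted p = 0.065 to 0.145). Its partner Krt18 showed a difference of 0.18 ± 0.10 that was not called (adjusted p = 0.14). Foxa1, a pioneer factor of luminal cells, read 9.58, 9.64 and 9.60 against 9.37, 8.58 and 8.54 and was 1.71-fold higher (adjusted p = 0.00684). Cldn7, a claudin of epithelial tight junctions that was listed with the luminal markers, was 1.81-fold higher (adjusted p = 0.00015). Other listed luminal markers ran the other way. Cd24a, a surface glycoprotein used to sort mammary epithelial cells, was 2.32-fold lower (adjusted p = 0.00298), with overlapping arrays and no call when the 6 arrays were fitted alone. Epcam, an epithelial adhesion molecule, read 5.97, 6.93 and 7.61 against 6.52, 8.04 and 8.41. Its difference of -0.82 ± 0.39 was not called (adjusted p = 0.0833), but it was called with replicate number as a block (adjusted p = 0.0357) and without erbB2-negative replicate 1 (-1.39, adjusted p = 0.00105). Without erbB2-negative replicate 1, without both replicate 1 arrays, or with the replicate block, 5 luminal markers were lower in place of 3.

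The basal keratins were lower in every replicate number. Krt14 read 9.42, 9.93 and 9.74 against 10.83, 11.32 and 10.80, and was 2.44-fold lower (-1.29 ± 0.15, adjusted p = 1.9e-05). Krt5 read 9.55, 10.28 and 9.17 against 10.96, 11.47 and 10.59, and was 2.53-fold lower (adjusted p = 0.00085), although it missed the threshold after quantile normalization (adjusted p = 0.056). Both were below every erbB2-negative array and above the MMTV-neu means of 7.43 and 7.71. Itgb1 and Itga6, subunits of laminin-binding integrins, were 3.38-fold and 2.71-fold lower. Itgb1 read 8.12, 9.14 and 9.12 against 10.10, 10.85 and 10.69. Cnn1 and Tagln, actin-binding proteins of smooth muscle and myoepithelium, were 3.11-fold and 2.62-fold lower.

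**Figure D2:**
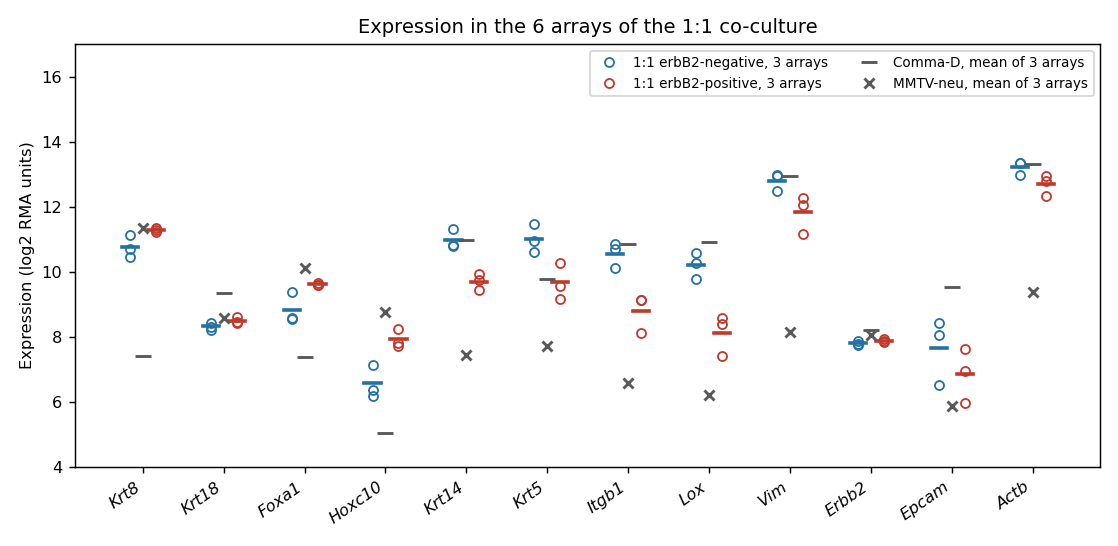
Expression (log2 RMA units) of 12 genes in the 3 erbB2-negative and 3 erbB2-positive arrays of the 1:1 co-culture (circles, with the mean as a bar), beside the means of unmixed Comma-D (dash) and MMTV-neu (cross). The erbB2-positive circles lie below the erbB2-negative ones for Krt14, Krt5, Itgb1, Lox and Vim, above them for Krt8, Foxa1 and Hoxc10, and overlap for Krt18, Erbb2 and Epcam.

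Junction genes went both ways. Of 22 measured, 8 were higher and 9 lower (median -0.17, and -0.15 relative to genes of a like level), with 5 higher and 5 lower after quantile normalization. The higher members were 3 without erbB2-positive replicate 1 and 2 without erbB2-negative replicate 3. They were 5 without erbB2-positive replicate 2, without both replicate 1 arrays, or with the replicate block in the 6 arrays. Gja1 (connexin 43, the gap junction protein of basal cells) read 7.54, 7.99 and 7.86 against 9.61, 9.69 and 9.46 and was 3.45-fold lower (adjusted p = 3.4e-05). Perp, a desmosome component, was 2.65-fold lower, F11r, a junctional adhesion molecule, 2.37-fold lower and Tjp1, the scaffold ZO-1, 1.99-fold lower. Cdh1 (E-cadherin) differed by -0.41 ± 0.26 and was not called (adjusted p = 0.176). It was called without erbB2-negative replicate 1 (-0.81, adjusted p = 0.0015).

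Mesenchymal genes were mostly lower in the erbB2-positive fraction, the one labelled cancer. Of 20 measured, 16 were lower and 0 higher (median -1.06, and 0.74 below genes of a like level). After quantile normalization 15 were still lower, and after centring 11 were lower and 2 higher. Lox, which cross-links collagen, read 7.39, 8.57 and 8.39 against 9.78, 10.56 and 10.27, and was 4.25-fold lower (-2.09 ± 0.26, adjusted p = 3.3e-05). Prrx1, a homeobox factor of mesenchyme, read 6.87, 7.59 and 7.57 against 8.94, 9.55 and 9.47 and was 3.94-fold lower. Axl, a receptor tyrosine kinase, was 3.38-fold lower with a small spread (-1.76 ± 0.16), and Itga5, the fibronectin receptor subunit, was 3.12-fold lower. Vim, the mesenchymal intermediate filament, read 11.16, 12.05 and 12.27 against 12.48, 12.96 and 12.93. It was 1.95-fold lower (adjusted p = 0.00188), with the difference at -0.63 without erbB2-positive replicate 1 and not called after centring (adjusted p = 0.080). Of 22 matrix and matricellular genes, 13 were lower and 3 higher (median -0.73, and 0.42 below genes of a like level). After quantile normalization 9 were lower and 4 higher, and after centring 10 were lower and 8 higher. Thbs2, a thrombospondin, was 3.42-fold lower, Tnc (tenascin C) 3.31-fold, Fbln2 (fibulin 2) 3.04-fold and Postn (periostin) 2.82-fold lower.

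The 4 ERBB receptors did not move together (median 0.05, and 0.20 relative to genes of a like level), with 1 higher and 1 lower both as deposited and after quantile normalization. Egfr, the receptor for EGF, read 7.15, 6.77 and 6.71 against 8.02, 8.06 and 7.76, without overlap, and was 2.10-fold lower (-1.07 ± 0.22, adjusted p = 0.00118). It was not called after centring (adjusted p = 0.119). Erbb4, a neuregulin receptor, was 1.51-fold higher (adjusted p = 0.0069). That call was lost after quantile normalization (adjusted p = 0.121) and in the 6 arrays alone (adjusted p = 0.065), and without erbB2-positive replicate 1 the difference was 0.35. Erbb3, the kinase-impaired partner of erbB2, differed by 0.03 ± 0.17 (adjusted p = 0.887). Of 9 ERBB ligands, 3 were higher and 0 lower (median 0.21, and -0.06 relative to genes of a like level), and after quantile normalization 2 were higher and 2 lower. The higher members were 0 in the 6 arrays alone, 0 without erbB2-negative replicate 3 and 1 without erbB2-positive replicate 2, and 2 members were lower without erbB2-negative replicate 1 or with the block in the 6 arrays. The neuregulin gene Nrg2 was 1.42-fold higher (adjusted p = 0.0101), but not in the 6 arrays alone (adjusted p = 0.068) or without erbB2-negative replicate 3 (adjusted p = 0.076). Ereg (epiregulin) differed by -0.52 ± 0.22 and Nrg1 by -0.35 ± 0.21. Neither was called, but Ereg was called with the replicate block (adjusted p = 0.0195).

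Several negative regulators of the ERK and ERBB pathways were lower in the erbB2-positive fraction. Of 15 ERK and ERBB feedback genes, 7 were lower and 3 higher (median -0.25, and 0.19 below genes of a like level). After quantile normalization 6 were lower and 2 higher, whereas after centring 3 were lower and 6 higher, with a median of 0.35. Dusp6, the phosphatase that inactivates ERK, read 7.62, 7.81 and 7.78 against 9.38, 9.35 and 9.26, and was 3.01-fold lower (-1.59 ± 0.19, adjusted p = 3.1e-05). The fractions did not overlap. Errfi1, which inhibits EGFR and erbB2 kinase activity, read 8.75, 8.93 and 8.99 against 10.30, 10.01 and 10.28 and was 2.47-fold lower. Spred1, a Ras pathway inhibitor, was 2.26-fold lower. Of 20 immediate early genes, 7 were lower and 3 higher (median -0.45, and 0.03 below genes of a like level). After quantile normalization 4 were lower and 4 higher, after centring 3 were lower and 6 higher, and with the replicate block 11 were lower. The higher members were 1 without erbB2-positive replicate 1 and 1 without erbB2-negative replicate 2 or 3. Btg2, an antiproliferative early gene, was 2.97-fold lower, Myc 2.60-fold lower (not called after quantile normalization, adjusted p = 0.067) and Jun 2.05-fold lower (not called after centring, adjusted p = 0.053). Of 10 cytosolic heat shock chaperones, 5 were lower and 1 higher (median -0.54, and -0.15 relative to genes of a like level). After quantile normalization 1 was lower and 3 were higher, and after centring 2 were lower and 2 higher. In the 6 arrays alone 2 were lower, and 8 were lower without erbB2-negative replicate 1 or without both replicate 1 arrays. Hspe1 and Hsp90aa1 were 2.15-fold and 2.06-fold lower and lost their calls after quantile normalization (adjusted p = 0.169 and 0.093).

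Genes of the unfolded protein and amino acid stress responses were mostly lower. Of 22 measured, 17 were lower and 0 higher (median -0.88, and 0.38 below genes of a like level). After quantile normalization 9 were lower, and after centring 9 were lower and 2 higher. Asns, which makes asparagine and is induced by ATF4, read 9.29, 9.77 and 9.89 against 10.72, 11.35 and 11.38, and was 2.83-fold lower (adjusted p = 3.1e-05). Shmt2 and Psat1, enzymes of serine and glycine metabolism, were 3.09-fold and 2.77-fold lower, and Slc3a2, the heavy chain of amino acid exchangers, was 2.48-fold lower. Dnajb9, an ER co-chaperone, read 6.97, 6.33 and 6.93 against 7.97, 8.33 and 8.82, a difference of -1.63 ± 0.22. Among the ER chaperones, Hspa5 (BiP) was 2.40-fold lower (adjusted p = 0.00155), Hsp90b1 (GRP94) 2.03-fold lower (adjusted p = 0.00275) and Calr (calreticulin) 1.69-fold lower (adjusted p = 0.00887). Hspa5 kept its call after quantile normalization (-0.67, adjusted p = 0.036), whereas Hsp90b1 (-0.46, adjusted p = 0.079) and Calr (-0.19, adjusted p = 0.442) did not. The Calr call was also lost without erbB2-positive replicate 1 (adjusted p = 0.056) or erbB2-negative replicate 3 (adjusted p = 0.058).

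Hspa5 and Hsp90b1 were named after their values were seen, because their promoters hold the endoplasmic reticulum stress element, the motif through which the unfolded protein response induces chaperones. The motif searched was CCAAT followed, after 9 bases of any kind, by CCACG, on both strands, over 250 bases before to 50 bases after the RefSeq gene start (GRCm38.p6). It is in 0.119% of 32851 such promoters and in 3 of the 21 list members with a promoter in the table. The list is of genes of the unfolded protein and amino acid stress responses, so the share among its members is no test of enrichment. The 3 promoters are shown with the motif in capitals. They lie at chr2:34771840-34772139 (Hspa5, plus strand), chr8:84846882-84847181 (Calr, minus strand) and chr10:86705395-86705694 (Hsp90b1, minus strand). Hsp90b1 holds it 2 times, in opposite orientations. A match is a description of the letters and not evidence of a bound factor.
Hspa5: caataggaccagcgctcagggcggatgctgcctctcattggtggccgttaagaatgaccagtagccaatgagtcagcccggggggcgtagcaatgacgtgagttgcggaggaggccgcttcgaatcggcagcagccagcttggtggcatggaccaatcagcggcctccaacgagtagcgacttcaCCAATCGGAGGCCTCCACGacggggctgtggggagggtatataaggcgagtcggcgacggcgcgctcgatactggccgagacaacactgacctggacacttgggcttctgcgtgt
Calr: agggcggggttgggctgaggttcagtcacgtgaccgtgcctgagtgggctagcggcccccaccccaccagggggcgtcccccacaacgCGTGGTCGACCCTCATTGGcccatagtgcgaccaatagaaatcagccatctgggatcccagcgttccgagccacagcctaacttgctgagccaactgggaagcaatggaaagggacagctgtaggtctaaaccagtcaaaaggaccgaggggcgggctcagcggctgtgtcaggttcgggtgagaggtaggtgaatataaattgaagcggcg
Hsp90b1: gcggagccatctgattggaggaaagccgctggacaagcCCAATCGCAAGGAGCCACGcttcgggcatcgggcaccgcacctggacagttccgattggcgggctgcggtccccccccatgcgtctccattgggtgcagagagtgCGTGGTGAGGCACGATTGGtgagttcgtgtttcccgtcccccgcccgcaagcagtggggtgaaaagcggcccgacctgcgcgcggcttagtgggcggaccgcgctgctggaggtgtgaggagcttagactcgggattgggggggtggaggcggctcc

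Lipid synthesis and respiratory chain genes were mostly lower as deposited, and less so after quantile normalization, while hypoxia and glycolysis genes turned with centring. Of 21 cholesterol and fatty acid synthesis genes, 15 were lower and 1 higher (median -0.91, and 0.57 below genes of a like level). The count of lower members was 8 without erbB2-positive replicate 1, without erbB2-negative replicate 2 or without erbB2-negative replicate 3, and 5 in a fit of the 6 arrays alone. After quantile normalization 9 were lower and 4 higher, and after centring 7 and 4. Scd1, the stearoyl-CoA desaturase, read 8.91, 9.92 and 10.31 against 10.79, 11.49 and 11.49 and was 2.92-fold lower. Fdft1 and Sqle, the squalene synthase and epoxidase, were 2.63-fold and 2.55-fold lower. Of 23 hypoxia and glycolysis genes, 10 were lower and 2 higher (median -0.16, and 0.06 below genes of a like level). After quantile normalization 7 were lower and 5 higher, and after centring 5 were lower and 12 higher. The glucose transporter Slc2a1 read 9.12, 9.08 and 9.21 against 10.72, 10.53 and 10.42, a 2.68-fold difference. Ldha, the lactate dehydrogenase, was 2.64-fold lower and the glycolytic enzyme Aldoa 2.59-fold lower. Of 21 nuclear-encoded respiratory chain genes, 16 were lower and 0 higher (median -0.94, and 0.41 below genes of a like level), and after quantile normalization 10 were lower and 1 higher, and after centring 9 and 3. The lower ones included Uqcrc1 of complex III (2.80-fold), Cox4i1 of complex IV (2.66-fold) and Ndufa9 of complex I (2.61-fold).

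The pair of measured mitochondrially encoded genes differed from each other. ND3, a complex I subunit, read 9.19, 9.69 and 9.82 against 10.46, 10.85 and 10.96, and was 2.28-fold lower (adjusted p = 8.2e-05). COX2, a complex IV subunit, read 11.87, 12.23 and 12.57 against 12.56, 12.47 and 12.59 and was not called (-0.32 ± 0.17, adjusted p = 0.121). In unmixed MMTV-neu they averaged 4.78 and 5.05, far below all 6 arrays of the co-culture. Of 19 cytosolic ribosomal protein genes, 13 were lower and 1 higher, but their median of -0.51 was 0.01 above genes of a like level, and after quantile normalization 7 were lower and 4 higher. Of 23 proteasome subunit genes, 12 were lower and 0 higher, and their median of -0.50 was 0.07 above genes of a like level. After quantile normalization 7 proteasome genes were higher and 6 lower. Rpl7, of the large ribosomal subunit, and Psma3, of the proteasome core, were 2.81-fold and 3.22-fold lower.

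Interferon-stimulated genes, whose median level of 6.74 was close to that of all genes, were mostly lower where called, except after centring. Of 20 measured, 10 were lower and 1 higher (median -0.46, and 0.52 below genes of a like level). After quantile normalization 10 were lower and 0 higher, whereas after centring 2 were lower and 8 higher, with a median of 0.13. Rtp4, an interferon-induced antiviral gene, read 5.89, 5.27 and 6.27 against 7.43, 7.57 and 8.36 and was 3.94-fold lower (adjusted p = 1.5e-05). Usp18, which removes ISG15 from proteins, was 2.73-fold lower. Of 10 class I antigen presentation genes, 5 were lower and 2 higher (median -0.28, and -0.17 relative to genes of a like level). After quantile normalization 3 were lower and 2 higher, and without erbB2-negative replicate 3, 3 were lower and 0 higher. B2m, the light chain of class I molecules, read 9.55, 9.89 and 10.40 against 11.38, 11.45 and 11.55 and was 2.86-fold lower (adjusted p = 5.9e-05). Tapbp (tapasin), which loads peptides, was 2.36-fold lower. Of 22 chemokine and interleukin genes, 7 were higher and 3 lower (median 0.15, and -0.12 relative to genes of a like level), and after quantile normalization 0 were higher and 5 lower. The higher count was 3 without erbB2-positive replicate 1 or erbB2-negative replicate 3, 4 without erbB2-negative replicate 2 and 4 without both replicate 1 arrays. The lower count was 5 without erbB2-negative replicate 1. Csf1, the macrophage growth factor, read 8.01, 8.15 and 8.18 against 9.60, 9.89 and 9.82 and was 3.15-fold lower, and Cxcl12 was 3.08-fold lower.

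Calls on mitosis genes depended on whether replicate number was in the fit. None of 21 was called in the fit of all 18 arrays, where 4 had an unadjusted limma p under 0.05, and their median was -0.62 (-0.49 relative to genes of a like level). After quantile normalization 2 were lower and 0 higher, and after centring 0 were lower and 2 higher. With replicate number as a block, 7 were lower in the 18 arrays and 10 in the 6 arrays, and without erbB2-negative replicate 1, 13 were lower. Without both replicate 1 arrays, 6 were lower. Ccna2 (cyclin A2) read 7.10, 8.07 and 8.87 against 7.85, 9.56 and 10.35. Both fractions were lowest in replicate 1, and the difference of -1.24 ± 0.53 (adjusted p = 0.0536) became a call with the block (adjusted p = 0.0094). Mki67 differed by -1.02 ± 0.48 (adjusted p = 0.0801; 0.0236 with the block), and Tpx2, a spindle assembly factor, by -1.05 ± 0.45 (adjusted p = 0.0567; 0.0118 with the block). Of 24 DNA replication genes, 3 were lower and 1 higher (median -0.12, and -0.02 relative to genes of a like level). The direction turned after quantile normalization, with 1 lower and 3 higher, and after centring, with 2 lower and 12 higher. The lower members were 5 under the block in the 18 arrays, 6 without erbB2-negative replicate 1 and 5 without both replicate 1 arrays. Pcna, the sliding clamp, was 2.48-fold lower (adjusted p = 0.00385), with overlapping arrays. Of 16 cyclin D, CDK inhibitor and p53 target genes, 11 were lower and 2 higher (median -0.70, and 0.36 below genes of a like level). After quantile normalization 6 were lower and 1 higher, and after centring 4 were lower and 4 higher. Ccnd2 (cyclin D2) read 8.71, 8.98 and 8.67 against 10.41, 10.65 and 10.30, a 3.17-fold difference (adjusted p = 1.3e-06), and the p53 targets Mdm2 and Ccng1 were 2.77-fold and 2.67-fold lower.

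Hox cluster genes were mostly higher. Of 26 measured, 19 were higher and 0 lower (median 0.55, and 0.21 above genes of a like level), and 14 were higher and 0 lower after quantile normalization. Hoxb7 read 8.27, 8.19 and 7.82 against 7.47, 7.07 and 7.03 and was 1.88-fold higher (adjusted p = 0.00032). Hoxc9 was 1.70-fold higher, and Hoxc6 and Hoxc10 were among the largest rises of all. Of 21 TGF-beta, BMP and ID genes, 11 were lower and 2 higher (median -0.46, and -0.12 relative to genes of a like level). After quantile normalization 7 were lower and 4 higher, and after centring 5 were lower and 7 higher. The ligands Tgfb2 and Tgfb3 were 3.41-fold and 2.88-fold lower, and the BMP receptor Bmpr1a was 2.96-fold lower. Of 15 Notch pathway genes, 6 were higher and 4 lower (median -0.23, and 0.0039 relative to genes of a like level), and after quantile normalization 6 were higher and 3 lower. The lower members were 2 without erbB2-negative replicate 3 and 6 with the replicate block in the 6 arrays or without both replicate 1 arrays. The ligand Jag1 was 2.77-fold lower and the receptor Notch2 2.26-fold lower, while the target Heyl was 1.65-fold higher.

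Of 16 insulin-like growth factor and imprinted growth genes, 5 were higher and 5 lower (median -0.05, and 0.03 relative to genes of a like level). After quantile normalization 3 were higher and 3 lower, and 2 were higher without erbB2-negative replicate 3. Igfbp7, a secreted binding protein, read 9.58, 10.31 and 10.42 against 11.37, 11.82 and 11.70 and was 2.88-fold lower. Igf2r, which clears IGF2, was 2.34-fold lower and the imprinted gene Dlk1 1.77-fold higher. Of 19 milk protein and lactation genes, 6 were higher and 4 lower (median 0.20, and -0.05 relative to genes of a like level), with 4 higher and 3 lower after quantile normalization. The higher count was 2 without erbB2-negative replicate 2, 3 without erbB2-positive replicate 1 or erbB2-negative replicate 3, and 4 without both replicate 1 arrays. The fat globule protein Mfge8 was 3.07-fold lower and Xdh, needed for milk fat secretion, 3.02-fold lower, while the whey protein gene Wap was 1.65-fold higher, at 7.12 to 7.29 against 6.33 to 6.69. Xist, the RNA that silences an X chromosome, read 8.89, 9.75 and 9.91 against 10.67, 11.37 and 11.33, and was 3.05-fold lower (-1.61 ± 0.25, adjusted p = 0.00016). It averaged 11.73 in Comma-D and 5.81 in MMTV-neu. Actb, a usual reference gene, was 1.44-fold lower (adjusted p = 0.00836). Its call was lost after quantile normalization, in the 6 arrays alone and without erbB2-positive replicate 1, and it turned to 0.08 after centring on the reference genes, which do not include it.

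**Figure D3:**
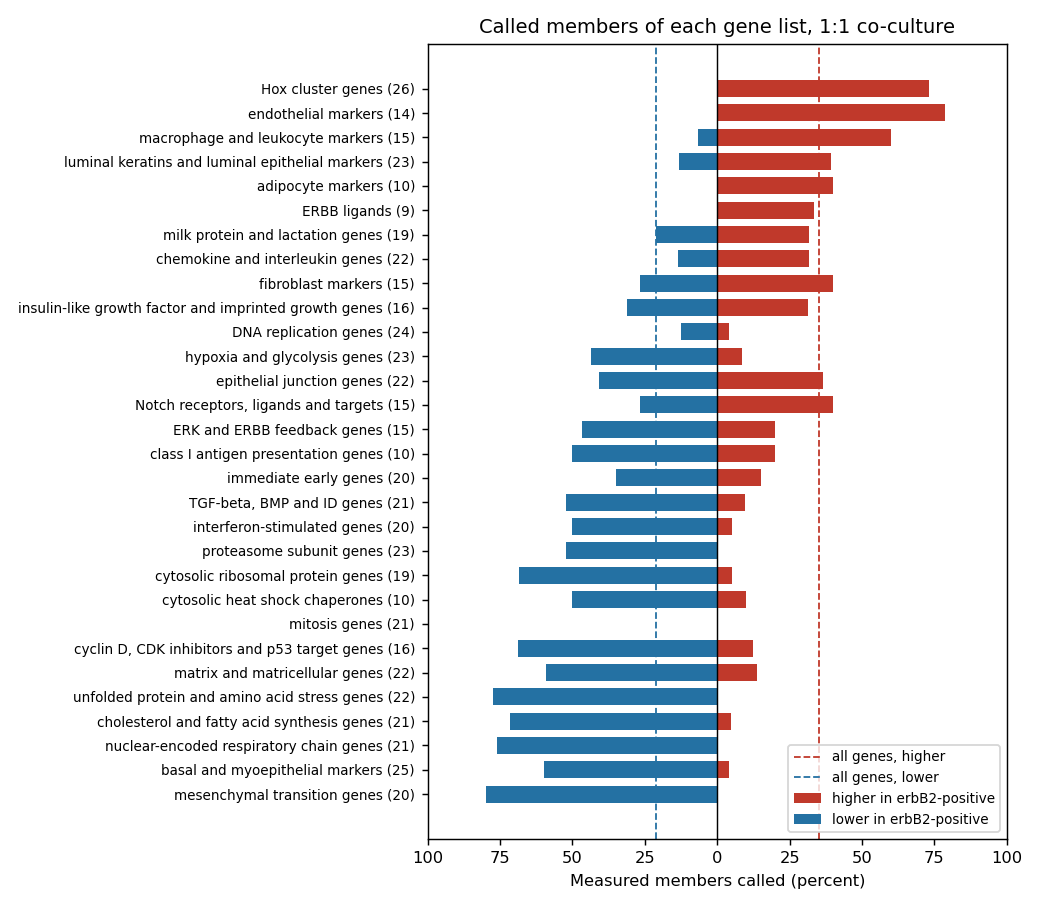
Percentage of measured members (number in parentheses) of each gene list called higher (red, to the right) or lower (blue, to the left) in the erbB2-positive fraction of the 1:1 co-culture; dashed lines mark all genes, 35.2% higher and 21% lower. Mesenchymal, unfolded protein, respiratory chain and cholesterol synthesis lists are called mostly lower, and Hox and endothelial lists mostly higher.

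Markers of endothelial cells, leukocytes, adipocytes and fibroblasts were also read. Of 14 endothelial markers, 11 were higher and 0 lower (median 0.45, and 0.12 relative to genes of a like level), with 6 higher after quantile normalization and 7 without erbB2-negative replicate 3. Their mean level was 6.13 to 6.32 in the erbB2-positive arrays, 5.59 to 6.04 in the erbB2-negative ones, 5.46 to 5.54 in Comma-D and 6.52 to 6.58 in MMTV-neu. Kdr, the VEGF receptor that defines endothelium, read 5.44 to 5.62 against 4.77 to 5.23, below the median gene of the 6 arrays at 6.64, and Cldn5 was 1.61-fold higher. Of 15 macrophage and leukocyte markers, 9 were higher and 1 lower (median 0.33, and 0.03 relative to genes of a like level), with 1 and 1 after quantile normalization. The higher count was 4 or 5 without erbB2-positive replicate 1 or 2 or erbB2-negative replicate 2 or 3. The mean level of the list was 5.80 to 6.06 against 5.52 to 5.72. The T cell receptor component Cd3e was 1.83-fold higher. Of 10 adipocyte markers, 4 were higher and 0 lower (median 0.23, and -0.04 relative to genes of a like level). After quantile normalization 2 were higher and 0 lower, and 1 was higher without erbB2-positive replicate 1 or erbB2-negative replicate 3 and 2 without both replicate 1 arrays. Their mean level was 5.78 to 6.01 against 5.45 to 5.70, and the lipid droplet gene Cidec was 1.67-fold higher. Of 15 fibroblast markers, 6 were higher and 4 lower (median 0.13, and 0.02 relative to genes of a like level), with 4 higher and 3 lower after quantile normalization. Pdgfrb, the PDGF receptor of stromal cells, was 3.83-fold lower (7.45, 8.75 and 8.46 against 9.48, 10.78 and 10.22), while Thy1 was 1.85-fold higher. The part of other cell types in these differences was not tested.

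The fraction difference ran along the difference between the unmixed lines, which shares no array with it. Over the 19938 genes, which are no independent points, the 1:1 difference and the MMTV-neu minus Comma-D difference had a Pearson r of 0.945 and a Spearman rank correlation of 0.937, with a slope of 0.44. Between the lines 17310 genes (86.8%) were called, 56.4% of all genes higher in MMTV-neu and 30.4% lower. Of the 11195 genes called between the fractions, 10978 (98.06%) were called in the same direction between the lines, 20 in the opposite one and 197 were not called between the lines. The spread of gene values per array was narrower in MMTV-neu than in Comma-D, as in the erbB2-positive against the erbB2-negative arrays. The part of that spread in the agreement was not tested. The slope was shallower for genes far lower in MMTV-neu. Genes with a median line difference of -5.49 had a median fraction difference of -1.51, and those at -2.37 had -1.19. On an axis of 1641 genes that set the Comma-D mean at 0% and the MMTV-neu mean at 100%, erbB2-positive replicates 1, 2 and 3 lay at 80.5%, 66.7% and 61.0%, and the erbB2-negative ones at 42.2%, 19.3% and 16.7%. The means were 69.4% ± 10.0 (SD, n = 3) and 26.0% ± 14.03 (SD, n = 3). The difference of 43.4 points had the smallest two-sided exact permutation p that 3 against 3 arrays allow (p = 0.1). Within replicate number it was 38.3, 47.4 and 44.3 points. Most axis genes were lower in MMTV-neu, as 80 genes were over 2 log2 units higher there. The difference was 35.3 points with axis genes higher in MMTV-neu and 43.6 with those higher in Comma-D.

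A few genes were called against the direction of the lines. Rgma, a repulsive guidance molecule and BMP co-receptor, read 8.42, 8.40 and 8.15 against 7.79, 7.91 and 7.87 and was 1.38-fold higher (adjusted p = 0.00391), while it averaged 8.33 in Comma-D and 7.99 in MMTV-neu. Scara5, a ferritin receptor, was 1.35-fold higher (adjusted p = 0.00695), with 8.29 in Comma-D and 7.44 in MMTV-neu. Flt1, a VEGF receptor, read at most 7.07 against 7.33, 7.52 and 7.49 and was 1.32-fold lower (adjusted p = 0.0068), with 6.85 in Comma-D and 7.48 in MMTV-neu. Its direction turned after centring (0.20, adjusted p = 0.296).

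**Figure D4:**
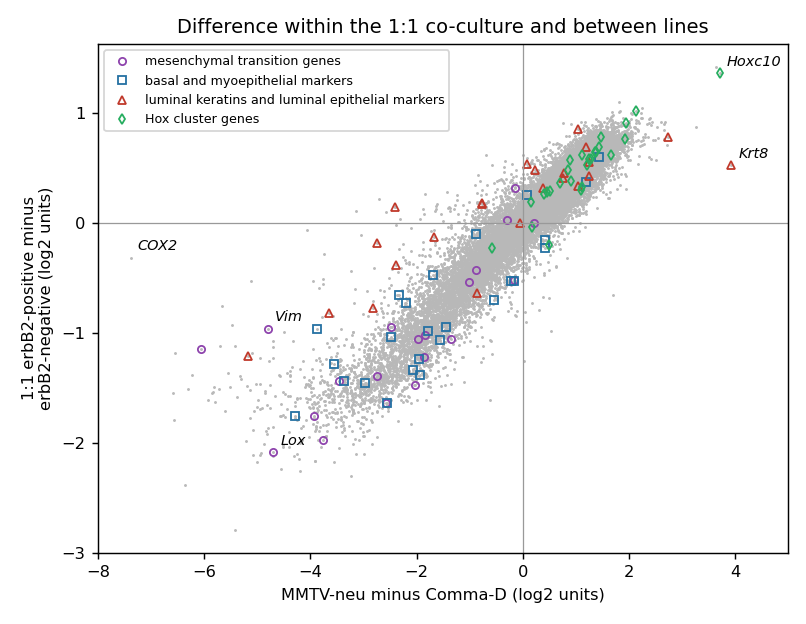
Difference between the fractions of the 1:1 co-culture against the difference between unmixed MMTV-neu and Comma-D (both log2 units) for 19938 genes (grey), with 4 gene lists marked. Points follow a line of slope 0.44, the mesenchymal and basal lists lie at lower left, and COX2 lies far left with a fraction difference of -0.32.

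At 1:50 the fraction difference was far smaller. Only Krt8 and Snora20, a small nucleolar RNA gene, were called (0.01% of genes), with 2675 genes at an unadjusted limma p under 0.05. The difference between the 1:1 and the 1:50 fraction differences was called at 548 genes (2.75%), of which 60 (0.301%) were above 0 and 488 (2.45%) below. That count was 1288 with the replicate block, 5303 without erbB2-negative replicate 1, 3127 without both replicate 1 arrays and 5 after centring. It was 164 and 322 without erbB2-positive replicates 1 and 2, 917 without erbB2-positive replicate 3, and 115 and 173 without erbB2-negative replicates 2 and 3. Krt8 was among the exceptions to the larger difference at 1:1. Its fraction difference was 0.53 at 1:1 and 2.47 at 1:50, and the gap of -1.94 ± 0.27 was called (adjusted p = 0.0029). Snora20 differed by -0.39 at 1:1, which was not called, and by 2.45 at 1:50. Snord82 and Arhgap42 differed at 1:1 and little at 1:50. Snord82, another small nucleolar RNA gene, read 7.12, 7.31 and 7.49 against 9.29, 9.08 and 9.32 at 1:1, a difference of -1.93, and differed by 0.22 at 1:50. Arhgap42 differed by -2.12 at 1:1 and -0.16 at 1:50. Jph1, a junctophilin, was the largest positive case, with 0.91 at 1:1 and 0.08 at 1:50 (gap 0.84, adjusted p = 0.0091). Across these genes the 1:1 and 1:50 contrasts share no array.

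**Figure D5:**
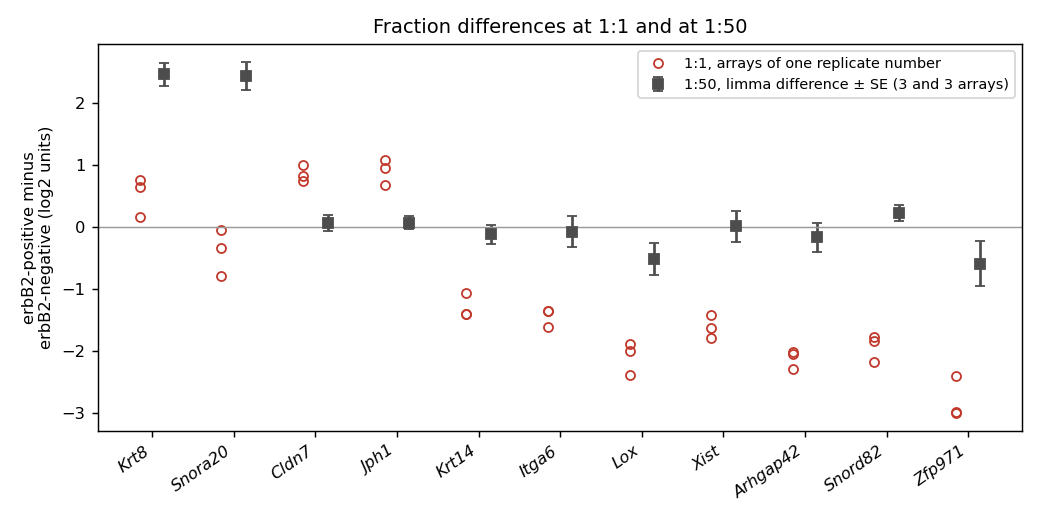
Difference between erbB2-positive and erbB2-negative arrays (log2 units) for 11 genes, as 3 differences within replicate number at 1:1 (circles) and as the limma difference ± SE at 1:50 (squares, n = 3 and 3). Krt8 and Snora20 are highest at 1:50, at 2.47 and 2.45, while Lox, Arhgap42, Snord82, Xist and Itga6 lie below 0 at 1:1 with 1:50 values nearer 0.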

How the data were processed

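RNA of 18 cell samples, 3 in each of 6 groups, had been hybridised to mouse gene arrays. The deposited values are log2 signals made by the authors with RMA, R 3.1.2 and limma being named per the submitters' processing notes. Further steps and the genome build: not given in the sources used here. Groups and replicate numbers came from the titles. Of 35556 probe sets, 21789 name 1 gene, 1621 name several and 12146 are unnamed here. Of those with 1 gene, 21698 were found in the RefSeq gene table. For each of 19938 genes the probe set with the highest mean over the 18 arrays was kept, with no filter on low values. The number of arrays limits the precision.

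One limma 3.58.1 fit (lmFit and eBayes, R 4.3.3) of all 18 arrays, with 12 residual degrees of freedom, gave every two-sided comparison and the interaction. The code was first tested on simulated data. The axis between the lines used genes called between them that differed by at least 2 log2 units. Like level means the median of the gene's bin, of 20 bins by mean over the 6 arrays. Lists are given as counts and medians, with no test.

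By rule the text may name the 15 largest called differences each way that do not overlap and have no provisional symbol. It may also name the 8 each way called against the lines, the 5 each way of the interaction, 5 members of each list, and 13 set genes (Erbb2, Erbb3, Egfr, Cdh1, Epcam, Vim, Krt8, Krt18, Krt14, Krt5, Actb, Xist and Hoxc10). From these, genes of known role or stable call were preferred. Members and lists were chosen with earlier results of these data known.

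The main fit held no term for replicate number. The differences within replicate number and the replicate block treated equal numbers as pairs. Deviations of such pairs from their group means correlated at 0.628, 0.218 and 0.602. An unlike pair, erbB2-positive replicate 3 with erbB2-negative replicate 2, reached 0.438, so the pairing is an assumption. Alternatives were other filters, probe set rules, priors, scalings, thresholds, subsets of arrays, the replicate block and leaving out each array. Leaving out both replicate 1 arrays and fitting the 12 co-culture arrays were added after seeing the data.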

Additional observations from a re-analysis of the deposited data

Results flagged for a closer look

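As deposited, the fraction difference differed between the co-culture ratios at 548 genes, by a direct limma test of the 1:1 difference minus the 1:50 difference (n = 3 arrays in each of the 4 groups). That count was 5 after centring, 1141 after quantile normalization, 67 in the 12 co-culture arrays and 115 to 5303 without single arrays. Each gene below is one of the 548 in the main fit. Most were named for a large 1:1 difference, which the test contains. Their values are therefore no separate evidence of a difference between the ratios. Calls of single genes under these alternatives are not given here. The test gave -1.94 for Krt8 and -2.84 for Snora20 log2 units, both higher at 1:50. Values above 0 were 0.79 for Cldn7 and 0.84 for Jph1. Among the largest falls and small nucleolar RNA genes they were -2.21 for Zfp971, -2.15 for Snord82, -1.95 for Arhgap42, -1.93 for Emb, -1.76 for Idh1, -1.75 for C1galt1, -1.62 for Gstp1 and -1.62 for Dnajb4. Basal and junction genes gave -1.17 for Krt14, -1.52 for Itgb1, -1.36 for Itga6, -1.42 for Gja1 and -1.15 for Perp. Mesenchymal and matrix genes gave -1.57 for Lox, -1.42 for Prrx1, -1.51 for Axl, -1.72 for Tnc and -1.43 for Fbln2. Feedback inhibitors gave -1.16 for Dusp6 and -1.05 for Errfi1. Stress and amino acid genes gave -1.32 for Dnajb9, -1.19 for Asns, -1.16 for Shmt2 and -1.14 for Slc3a2, and metabolic genes -1.18 for Slc2a1, -1.15 for Ldha, -1.09 for Aldoa and -1.49 for ND3. Interferon, class I and chemokine genes gave -1.36 for Rtp4, -1.36 for B2m, -1.18 for Cxcl12 and -1.26 for Csf1. Cell cycle genes gave -1.37 for Ccnd2 and -1.35 for Mdm2. The remaining genes gave -1.63 for Xist, -1.35 for Mfge8, -1.59 for Xdh, -1.15 for Igfbp7 and -1.17 for Notch2.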

How the results depend on the processing

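The 11195 genes called between the 1:1 fractions became 7167 without the lowest 40% of genes (fewer genes tested) and 7455 after quantile normalization. They became 6904 in the 6 arrays alone, where both the number of samples and the arrays that set the spread differ. The fit of 18 arrays pools the spread of 6 groups, and its part in that change was not tested. The count was 7049 at an adjusted p under 0.01 and 1626 at 2-fold or more. Leaving out single arrays gave 6737 to 13221, with the lowest count without erbB2-negative replicate 3 and the highest without erbB2-negative replicate 1. With replicate number as a block the count was 11850 in the 18 arrays and 11526 in the 6 arrays, and 109 of 109 called genes of the text kept their calls. The block added calls for 5 others of the text in each fit and changed the interaction from 548 to 1288 genes. The interaction was called at 5 genes after centring, 1141 after quantile normalization, 67 in the 12 co-culture arrays, 3127 without both replicate 1 arrays and 115 to 5303 without single arrays, and the cause was not tested. Without the lowest 40% of genes, 1 gene was called at 1:50 and 9895 between the lines. The axis difference stayed between 35.3 points (axis genes higher in MMTV-neu) and 51.4 points (without erbB2-negative replicate 1) over its alternatives. Centring turned Actb to 0.075 and Flt1 to 0.20 and moved 92 of the 109 called genes by over 1.5 times. It turned the medians of 14 of 33 lists, and quantile normalization turned 7 and moved 37 of the 109 genes by over 1.5 times. Leaving out the lowest 40% of genes turned the medians of 4 lists. Array weights did not converge and were not used.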
